A study of Canis lupus familiaris with 8 samples.

Results

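A group of 8 genes read as marks of recent T cell activation, CD69, CD44, FOS, JUNB, DUSP1, DUSP2, NR4A1 and KLF6, was followed through circulating canine T cells. A list of 9 names was fixed and each name was looked up in the gene list of dog 2, which fits the matrices of all 4 dogs; 8 of the 9 names had a row, out of 20257 rows in all, and the remaining name, JUN, was not analysed here. The material was blood T cells, sorted for the αβ receptor, of 4 healthy, untreated, routinely vaccinated Beagles, namely dog 1, a female of 5 years, dogs 2 and 3, males of 7 years, and dog 4, a male of 9 years. The cells had been frozen, were thawed and loaded together, and were read by 5' single-cell RNA sequencing with a matched V(D)J library per dog, so the levels below are those of thawed cells. No dog was stimulated or treated, and every comparison is between classes of cells inside the same 4 animals. All 31909 cells with 500 to 20000 UMIs (molecules counted once each) and at most 10% mitochondrial UMIs were used, 7096, 8454, 8109 and 8250 from dogs 1 to 4.

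When an antigen receptor is engaged, kinase cascades and calcium signalling switch on a first wave of genes that need no new protein synthesis. Among them are the AP-1 subunits FOS and JUNB, the orphan nuclear receptor NR4A1, the zinc finger factor KLF6 and the dual specificity phosphatases DUSP1 and DUSP2, which remove the activating phosphates from MAP kinases and so limit the signal. CD69, a C-type lectin, is among the first surface proteins to appear on a stimulated T cell and holds it in tissue by pulling the egress receptor S1PR1 from the surface. CD44, the hyaluronan receptor, is gained more slowly and stays high on memory and effector T cells. The AP-1 genes are also known to respond to stress of the cell.

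Depth was alike in the 4 libraries, with medians of 3599 to 3931.5 UMIs per cell. Of the cells used, 1094 carried a barcode that was also a used cell of another dog (81 to 113 per pair of dogs), and the tests were repeated without them. The gene list of dog 1 held 27980 lines against 20257 rows in its matrix and was replaced by that of dog 2. T cell markers were present throughout (CD3E, CD3D, CD3G, CD2 and CD5 summed to 2783 to 3067 CPM, counts scaled to a total of 1000000 UMIs). Of the B cell markers, CD79A alone stood at 9062 to 10275 CPM, whereas MS4A1, CD79B and BLNK were under 6 CPM and PAX5 at 0. Of the myeloid markers, S100A8 stood at 1393 to 2769 CPM, LYZ at 0.708 CPM or less, and CSF1R, CSF3R and S100A12 at 0. MS4A1 was seen in 0.623% ± 0.224 and LYZ in 0.190% ± 0.0320 of cells (SD, n = 4 dogs). Whether these UMIs came from the sorted T cells themselves, free RNA, other cells or doublets was not tested.

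CD69 (ENSCAFG00000013596) was at a similar level in all dogs, 214, 202, 261 and 229 CPM in dogs 1 to 4, and at least 1 UMI of it was found in 45.2, 47.4, 54.7 and 49.3% of the cells. Thinned to 2000 UMIs per cell, so that depth was the same in every cell, CD69 was seen in 30.8, 29.7, 37.3 and 32.3% of cells. Dog 3 was highest on all 3 scales. CD44 (ENSCAFG00000006889) stood at 531, 649, 624 and 663 CPM and was seen in 72.3, 81.2, 79.2 and 82.9% of cells. Here dog 1 was lowest and dog 4 highest.

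The AP-1 transcript FOS (ENSCAFG00000017040) was abundant in every dog, with 1328, 1153, 1183 and 1209 CPM and at least 1 UMI in 84.7, 87.0, 82.7 and 84.2% of cells. It varied more from cell to cell than counting alone gives: after thinning, its variance over cells was 2.55 ± 0.199 times its mean (SD, n = 4 dogs), 2.19 ± 0.0754 in CD4 cells and 3.61 ± 0.794 in CD8A cells. The corresponding value of the other 7 genes in all cells lay between 1.07 and 1.69, where 1 is the value of counting noise. At equal relative spread this value grows with the mean count, and FOS had the most UMIs, so genes are not ranked by it. JUNB (ENSCAFG00000028848), another AP-1 subunit, stood at 252, 218, 154 and 205 CPM in dogs 1 to 4, highest in dog 1 and lowest in dog 3.

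Of the MAP kinase phosphatases, DUSP1 was the sparser. DUSP1 (ENSCAFG00000029826), which acts on p38 and JNK, stood at 59.0, 47.7, 41.4 and 42.6 CPM and was seen in 15.6% ± 1.66 of cells (SD, n = 4 dogs). DUSP2 (ENSCAFG00000023317), a nuclear phosphatase of lymphocytes, stood at 124, 111, 248 and 127 CPM, and dog 3 lay far above the other 3 dogs. With the cells of all dogs pooled, DUSP2 was seen in 31.5%. NR4A1 (ENSCAFG00000007338), which is switched on by antigen receptor signals, stood at 45.7, 50.4, 42.3 and 55.4 CPM and was seen in 15.0% ± 1.73 of cells. KLF6 (ENSCAFG00000005354) stood at 895, 1131, 1023 and 899.6 CPM and was seen in 89.2% ± 2.80 of cells. Levels are not ranked between genes, since 5' counts carry no length scale.

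Coreceptor classes were compared first. A cell with a CD4 UMI and no CD8A UMI was called CD4 single-positive (sp; 13247 cells), the reverse CD8A sp (6427 cells). DUSP2 and NR4A1 were higher in CD8A sp than in CD4 sp cells, and DUSP1 and JUNB were lower; CD69, CD44 and FOS did not pass the test. The UMIs of each dog and class were summed, the sums entered the quasi-likelihood test of edgeR with the dog as block, and a gene was called at an adjusted p under 0.05 over all genes tested (n = 4 dogs, each with both classes, in this and every later comparison).

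DUSP2 stood at 208, 191, 491 and 252 CPM in CD8A sp cells of dogs 1 to 4 and at 119.7, 90.6, 148 and 84.9 CPM in CD4 sp cells (log2 fold change 1.30 ± 0.14 (SE), adjusted p = 3.2e-04). The classes did not overlap, and dog 3 was highest in both. NR4A1 stood at 80.6, 72.0, 61.0 and 95.3 CPM against 39.8, 39.3, 34.4 and 38.5 CPM (log2 fold change 1.0 ± 0.085 (SE), adjusted p = 8.0e-05), again without overlap. The other phosphatase went the opposite way: DUSP1 stood at 48.1, 33.0, 33.4 and 26.5 CPM in CD8A sp and 60.8, 52.0, 44.7 and 49.0 CPM in CD4 sp cells (log2 fold change -0.59 ± 0.09 (SE), adjusted p = 0.0017). It was lower in CD8A sp cells of every dog, although dog 1 in the lower class lay above dog 3 in the higher one.

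JUNB stood at 182, 178, 140.2 and 179.8 CPM in CD8A sp and 266, 222, 166 and 199.6 CPM in CD4 sp cells (log2 fold change -0.32 ± 0.068 (SE), adjusted p = 0.0083), lower in all 4 dogs with overlapping ranges. KLF6 was higher in CD8A sp cells of every dog, with ratios of 1.08, 1.07, 1.19 and 1.15 (log2 fold change 0.15 ± 0.043 (SE), adjusted p = 0.032). That call was lost without dog 2, without dog 3, without dog 4 and with DESeq2. CD69 had ratios of 1.10, 1.07, 1.10 and 1.11, above 1 in all 4 dogs and small (log2 fold change 0.12 ± 0.04 (SE), adjusted p = 0.058). CD44 had ratios of 1.12, 0.95, 0.843 and 0.682, falling on both sides of 1 (log2 fold change -0.19 ± 0.094 (SE), adjusted p = 0.17), and FOS was not called either (log2 fold change 0.039 ± 0.052 (SE), adjusted p = 0.63). CD69 was called in cells of 3000 to 5000 UMIs (log2 fold change 0.18 ± 0.057 (SE), adjusted p = 0.037) and CD44 without dog 1 (log2 fold change -0.29 ± 0.08 (SE), adjusted p = 0.035).

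In all, 5 of 8 members were called in this comparison, 3 higher and 2 lower in CD8A sp cells, against 27.5% of all 10576 genes tested. The median log2 fold change was 0.079 over the members and -0.0035 over all genes. The granzyme gene GZMB was seen in 59.6% ± 5.47 of CD8A sp and 2.35% ± 0.988 of CD4 sp cells (SD, n = 4 dogs). Its part in these differences was not tested. The NK cell receptor genes NCR1, KLRF1 and KLRD1, which T cells with innate traits can share, summed to 442 to 692 CPM in CD8A sp and 0.773 to 29.3 CPM in CD4 sp cells, and their part in these differences was not tested. Over all cells that sum was nearly all KLRD1 (53.3 to 229 CPM), with NCR1 at 1.21 to 4.60 and KLRF1 at 0.171 CPM or less. Later NK values in CPM are sums of the same genes.

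**Figure D1:**
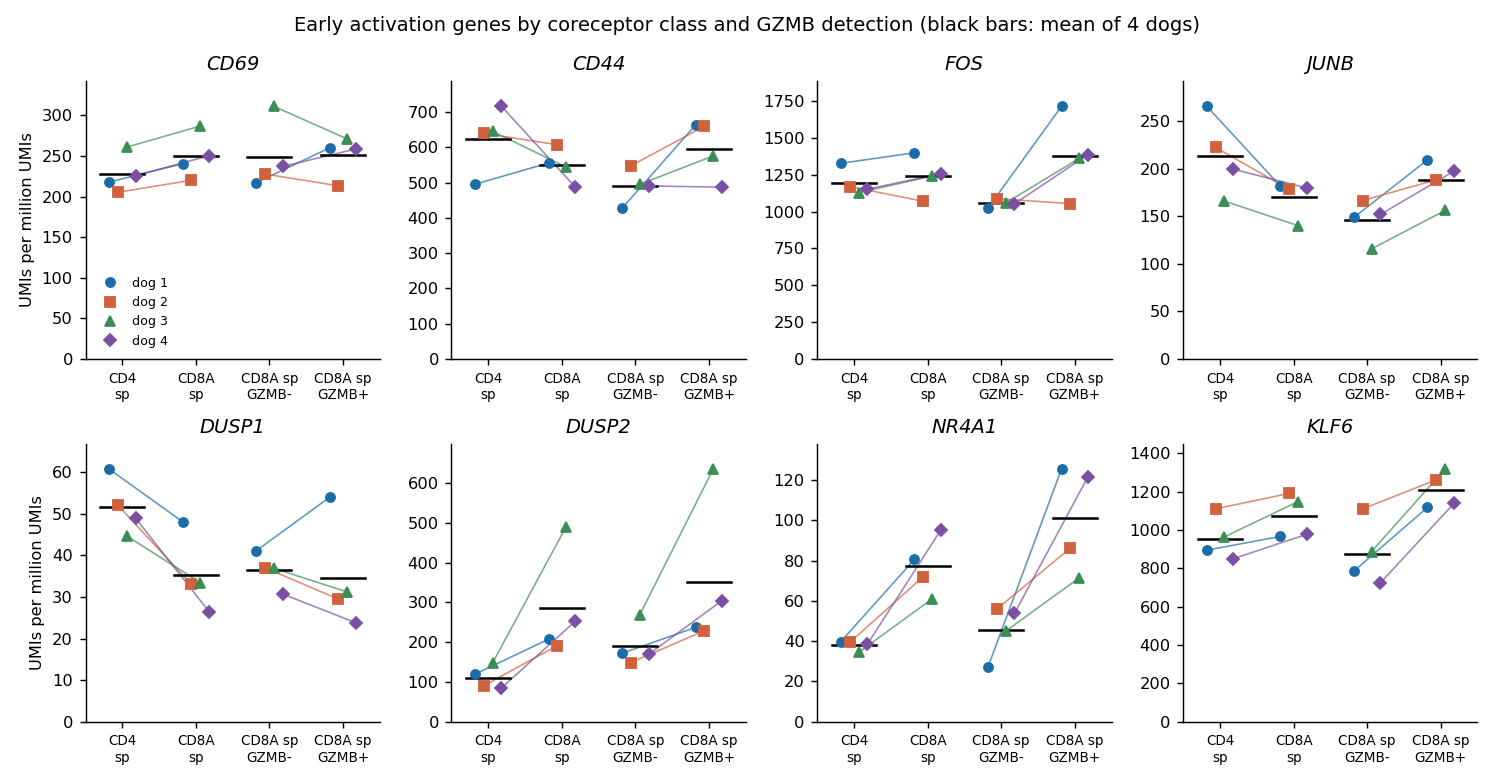
Level of each of the 8 genes in CPM (vertical axes, each with its own scale) by class of cell, 1 point per dog with a bar at the mean of the 4 dogs. DUSP2 and NR4A1 sit higher in CD8A sp than in CD4 sp cells in all 4 dogs, and DUSP1 and JUNB lower.

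Cells with neither coreceptor UMI (11510) or with both (725) are described only, since a missed coreceptor UMI cannot be told from a true absence. Their medians were 3232 to 3625 and 5418 to 5955 UMIs per cell, and the part of depth or doublets in these classes was not tested. CD69 stood at 200.1, 187, 243 and 218 CPM in the cells with neither and 199.9, 209, 243 and 215 CPM in those with both, and DUSP2 at 104, 93.4, 155 and 82.1 and 119, 133, 231 and 132 CPM. For DUSP2 both lay below the CD8A sp value of the same dog in all 4 dogs.

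Related genes were taken from lists, which include the members; over all genes 27.5% were called, 1451 higher and 1453 lower of 10576 genes. Of the AP-1 and ATF family, 2 of 8 tested were called: FOSL2, a FOS relative, was higher in CD8A sp cells (log2 1.52 ± 0.14 SE) and JUNB lower. Of the dual specificity phosphatases, 4 rose and 3 fell of 12 tested. Those higher included DUSP3 (2.60 ± 0.36) and DUSP4 (2.30 ± 0.47) beside DUSP2, and those lower DUSP6 (-1.55 ± 0.16) and DUSP10 (-1.02 ± 0.26) beside DUSP1, so the family split by member. Of the other immediate early genes, 10 rose and 9 fell of 27 tested. ZFP36 (0.94 ± 0.064), an mRNA decay factor, and IER3 (0.88 ± 0.10) rose beside NR4A1, while KLF4 (-1.82 ± 0.41), NR4A3 (-1.44 ± 0.28) and RGS1 (-0.82 ± 0.088) fell. Of the surface activation genes, 3 rose and 6 fell of 14 tested, the helper cell genes TNFRSF4 (-2.93 ± 0.17), CD40LG (-2.44 ± 0.14) and TNFRSF18 (-2.43 ± 0.21) being the lowest and CD38 (1.41 ± 0.10) the highest. NF-κB targets had 1 of 10 higher and 1 lower, and heat shock genes 2 higher and 4 lower of 11.

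CD8A sp cells with granzyme B were then set against the rest of that class. The product of GZMB is a killing enzyme of cytotoxic granules. In cells with a GZMB UMI (3931 cells), 6 of the 8 genes were called higher than in cells without (2496 cells): NR4A1, DUSP2, KLF6, JUNB, FOS and CD44. Over all 9398 genes tested, 9.46% were called higher. The FOS and CD44 calls were lost under 5 and 8 of 13 alternatives. None of the 8 genes was called lower, and CD69, the surface mark of early activation, was not called.

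NR4A1 stood at 125, 86.2, 71.4 and 122 CPM in GZMB+ cells and 27.1, 55.9, 44.9 and 53.8 CPM in GZMB- cells of dogs 1 to 4 (log2 fold change 1.01 ± 0.16 (SE), adjusted p = 4.2e-04). The classes did not overlap, and the gap was widest in dog 1. DUSP2 stood at 237, 229, 636 and 305 against 172, 149, 269 and 169 CPM (log2 fold change 0.80 ± 0.10 (SE), adjusted p = 5.3e-05), and KLF6 at 1118, 1262, 1318 and 1138 against 786, 1110.3, 888 and 724 CPM (log2 fold change 0.45 ± 0.075 (SE), adjusted p = 6.8e-04). Both were higher in all 4 dogs; for DUSP2 the GZMB- value of dog 3 lay above the GZMB+ values of dogs 1 and 2, while for KLF6 the classes did not overlap.

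JUNB stood at 209, 188, 156 and 197 against 149, 167, 116 and 152 CPM (log2 fold change 0.33 ± 0.071 (SE), adjusted p = 0.0039), higher in all 4 dogs. FOS stood at 1714, 1054, 1361 and 1387 against 1024, 1088, 1058 and 1053 CPM (log2 fold change 0.33 ± 0.091 (SE), adjusted p = 0.02). FOS was nearly level across dogs in GZMB- cells and spread widely in GZMB+ cells, and dog 2 went the other way; its call was lost without dog 1, without dog 3, without dog 4 and with DESeq2. CD44 had ratios of 1.55, 1.21, 1.16 and 0.993 (log2 fold change 0.24 ± 0.078 (SE), adjusted p = 0.046). Its call was lost under 8 of 13 alternatives, among them leaving out dog 1, dog 2 or dog 3.

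CD69 had GZMB+ to GZMB- ratios of 1.20, 0.936, 0.871 and 1.09 in dogs 1 to 4, on both sides of 1 (log2 fold change -0.02 ± 0.08 (SE), adjusted p = 0.91). DUSP1 had ratios of 1.31, 0.795, 0.846 and 0.774 (log2 fold change -0.21 ± 0.12 (SE), adjusted p = 0.27). Of all 9398 genes tested, 18.5% were called and 9.46% were called higher, against 6 of 8 members higher. The median log2 fold change was 0.33 over the members and -0.0087 over all genes. GZMB+ cells were shallower (median 3313 to 3815 UMIs per cell against 4060 to 4240). In cells of a narrow range of UMIs the calls of NR4A1, DUSP2, KLF6, JUNB, FOS and CD44 were kept. After thinning, the CD44 call alone was lost. Beyond these alternatives the part of depth was not tested. GZMB+ cells also carried more NK receptor transcripts (706 to 926 CPM against 109 to 410). ITGAM, of the 2 myeloid markers tested, was called higher, and the part of neither was tested.

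For the lists, the background is 18.5% called, 889 higher and 852 lower of 9398 genes. Of the 6 AP-1 and ATF genes tested, 5 were higher in GZMB+ cells, FOSL2 (1.23 ± 0.17, log2 ± SE), FOSB (0.37 ± 0.11) and JUND (0.29 ± 0.063) beside FOS and JUNB, and ATF3, a stress factor, was lower (-0.75 ± 0.18). Of the other immediate early genes, 8 rose and 4 fell of 24 tested, with IER3 (0.96 ± 0.13) and ZFP36 (0.90 ± 0.077) after NR4A1 at the top and MYC (-0.93 ± 0.076) at the bottom. Among the phosphatases DUSP2 alone was called of 11 tested. The surface activation genes split, with CD38 (1.0 ± 0.10) and TFRC (0.40 ± 0.12) higher and CD40LG (-2.31 ± 0.21), TNFRSF18 (-1.95 ± 0.31) and TNFRSF4 (-1.54 ± 0.44) lower. In the homing list CXCR6 (1.44 ± 0.21) and KLF3 (0.95 ± 0.08) were higher and CCR7 lower (-2.58 ± 0.13); of the heat shock genes 1 was higher and 3 lower of 10, and of the NF-κB targets TNFAIP3 alone was higher of 10.

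CCR7, the lymph node homing receptor of naive and central memory T cells, divided each coreceptor class. CD69 was higher and CD44 lower in CCR7+ than in CCR7- cells, in CD4 sp and CD8A sp cells alike and in every dog. DUSP2 was higher in CCR7+ cells of the CD4 sp class and lower in those of the CD8A sp class, and NR4A1 was lower in CCR7+ CD8A sp cells. The CD4 sp class held 5304 CCR7+ and 7943 CCR7- cells, the CD8A sp class 772 and 5655, of which dogs 1 to 4 gave 114, 234, 334 and 90 CCR7+ cells.

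In CD4 sp cells CD69 stood at 239, 217, 301 and 241 CPM in CCR7+ and 197, 197, 228 and 219.9 CPM in CCR7- cells (log2 fold change 0.27 ± 0.043 (SE), adjusted p = 2.4e-04). Among CD8A sp cells it stood at 277, 277, 368 and 272 against 233, 206, 269 and 249 CPM (log2 fold change 0.44 ± 0.076 (SE), adjusted p = 1.5e-04), where the CCR7+ values of all dogs lay above every CCR7- value. Dog 3 was highest in each of these classes.

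CD44 stood at 425, 571, 563 and 679 CPM in CCR7+ and 563, 691, 713 and 731 CPM in CCR7- CD4 sp cells (log2 fold change -0.25 ± 0.041 (SE), adjusted p = 3.1e-04). The same gene stood at 346, 462, 413 and 472 against 599, 642, 572 and 489 CPM in CD8A sp cells (log2 fold change -0.34 ± 0.08 (SE), adjusted p = 0.0036). It was lower in CCR7+ cells in 4 of 4 dogs in both classes, by least in dog 4, and the CD8A call was lost without dog 2. The 2 surface markers thus went in opposite directions between the same cells.

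DUSP2 in CD4 sp cells stood at 123, 109.7, 165 and 107 CPM with CCR7 and 116, 76.4, 134 and 76.3 CPM without (log2 fold change 0.37 ± 0.062 (SE), adjusted p = 4.3e-04), a call lost after thinning to 2000 UMIs (log2 fold change 0.22 ± 0.083 (SE), adjusted p = 0.059). In CD8A sp cells it stood at 222, 165, 266 and 154 against 205, 198, 539 and 259 CPM (log2 fold change -0.46 ± 0.12 (SE), adjusted p = 0.0082). Dog 1 did not share the second direction, and that call was lost without dog 3, without dog 4 and with DESeq2. NR4A1 stood at 35.2, 53.5, 37.3 and 60.2 CPM in CCR7+ and 90.0, 76.5, 66.1 and 97.7 CPM in CCR7- CD8A sp cells, with no overlap (log2 fold change -0.67 ± 0.12 (SE), adjusted p = 3.6e-04). In CD4 sp cells the NR4A1 ratios were 0.948, 0.878, 1.04 and 0.972 (log2 fold change -0.038 ± 0.065 (SE), adjusted p = 0.74).

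FOS was lower in CCR7+ CD8A sp cells, with ratios of 0.815, 0.9, 0.709 and 0.804 (log2 fold change -0.22 ± 0.061 (SE), adjusted p = 0.016), a call lost without dog 3. In CD4 sp cells its ratios were 0.947, 1.01, 0.976 and 0.971 (log2 fold change -0.002 ± 0.029 (SE), adjusted p = 0.97). JUNB (-0.02 in CD4 sp, -0.19 in CD8A sp, log2), DUSP1 (-0.16 and 0.30) and KLF6 (0.00064 and -0.071) passed the test in neither class. The CD4 sp result changed after thinning, where the classes were set again from the thinned counts. There FOS (log2 fold change -0.14 ± 0.041 (SE), adjusted p = 0.011), JUNB (log2 fold change -0.18 ± 0.065 (SE), adjusted p = 0.049) and DUSP1 (log2 fold change -0.57 ± 0.13 (SE), adjusted p = 2.4e-04) were called lower in CCR7+ cells. In cells of 3000 to 5000 UMIs DUSP1 was called lower too (log2 fold change -0.37 ± 0.094 (SE), adjusted p = 0.0062), but FOS and JUNB were not called. Of the 8 members 3 were called in CD4 sp cells, against 22.6% of 10033 genes, and 5 in CD8A sp cells, against 16.7% of 8768 genes. The median log2 fold change of the members was -0.011 and -0.20, beside 0.0047 and 0.014 over all genes. Other markers moved as well in CD4 sp cells: the myeloid list, nearly all S100A8, summed to 677 to 2358 CPM in CCR7+ and 1721 to 3174 CPM in CCR7- cells and the NK list to 0.288 to 20.0 and 1.23 to 37.0 CPM, and their part was not tested.

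GZMB was unevenly spread over the CCR7 classes of CD8A sp cells: 600 of 772 CCR7+ cells and 1896 of 5655 CCR7- cells lacked a GZMB UMI. Within GZMB- cells alone, an alternative chosen after seeing the data, CD69 kept its direction and call (log2 fold change 0.59 ± 0.086 (SE), adjusted p = 1.9e-05), as did CD44 (log2 fold change -0.40 ± 0.089 (SE), adjusted p = 0.0023). NR4A1 (log2 fold change -0.40 ± 0.17 (SE), adjusted p = 0.14) and FOS (log2 fold change -0.045 ± 0.067 (SE), adjusted p = 0.76) were no longer called. DUSP2 changed sign (log2 fold change 0.17 ± 0.11 (SE), adjusted p = 0.4), and KLF6, uncalled over all CD8A sp cells, was higher in CCR7+ cells (log2 fold change 0.26 ± 0.069 (SE), adjusted p = 0.011). CD69 in GZMB- cells stood at 293, 298, 377 and 267 CPM with CCR7 and 180.4, 198, 279 and 233 CPM without.

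Whether the CCR7 difference itself differed between CD8A sp and CD4 sp cells was tested as an interaction. It did for DUSP2 (log2 fold change -0.85 ± 0.21 (SE), adjusted p = 0.038) and NR4A1 (log2 fold change -0.70 ± 0.15 (SE), adjusted p = 0.018), 2 of 8 members, against 2.35% of 10158 genes. The interactions of CD69 (log2 fold change 0.14 ± 0.086 (SE), adjusted p = 0.52) and CD44 (log2 fold change -0.13 ± 0.13 (SE), adjusted p = 0.77) were not called, and FOS was in cells of 3000 to 5000 UMIs alone (log2 fold change -0.46 ± 0.11 (SE), adjusted p = 0.026). The DUSP2 call was lost without dog 2, dog 3 or dog 4, and the NR4A1 call without dog 1 or dog 3 and in cells of 3000 to 5000 UMIs. CCR7+ CD8A sp cells were also deeper than CCR7- ones (median 4181 to 5062 against 3452 to 3856 UMIs). Within CD8A sp cells the CCR7 calls of CD69, CD44, FOS, DUSP2 and NR4A1 were kept in cells of 3000 to 5000 UMIs and after thinning. CCR7+ CD8A sp cells held fewer NK receptor transcripts (149 to 352 against 502 to 765 CPM), and the part of these was not tested.

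**Figure D2:**
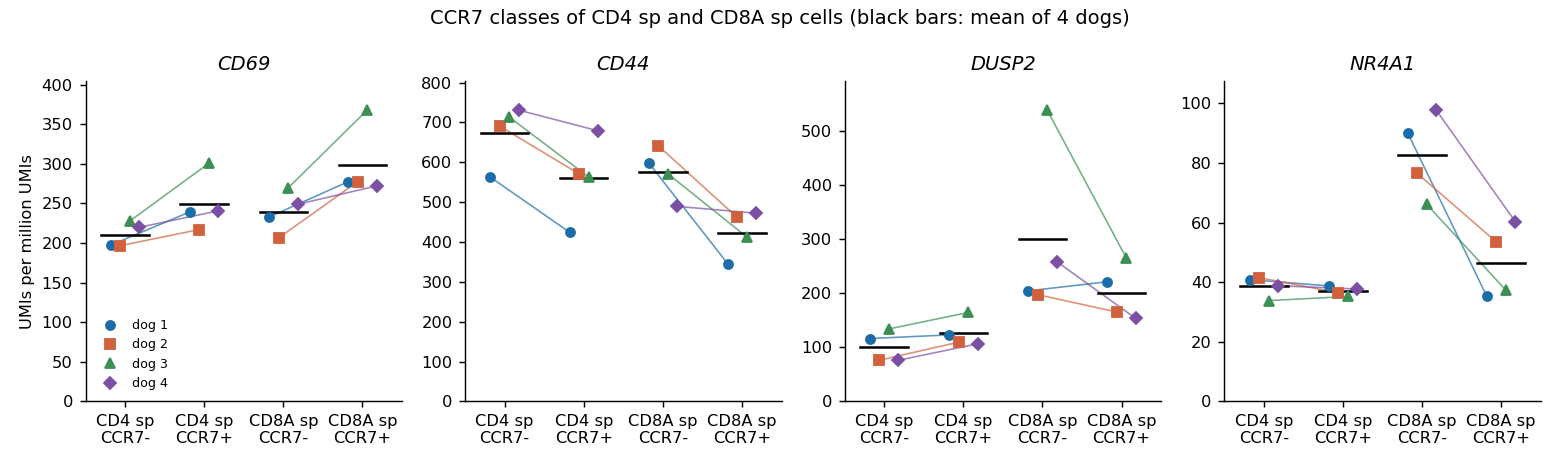
Level in CPM (vertical axes) of members in CCR7+ and CCR7- cells of the CD4 sp and CD8A sp classes, with a line joining the values of each dog. CD69 is higher and CD44 lower in CCR7+ cells of all 4 dogs in both classes.

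Over all genes 22.6% were called in CD4 sp (987 higher and 1276 lower of 10033 genes) and 16.7% in CD8A sp cells (715 higher and 746 lower of 8768 genes). Of the surface activation list, 3 rose and 8 fell of 14 tested in CCR7+ CD4 sp cells, with IL2RA (-0.86 ± 0.13) and the class II genes DLA-DMB (-0.55 ± 0.057) and DLA-DQA1 (-0.41 ± 0.039) lowest, on the side of CD44, and CD69 and TFRC (0.27 ± 0.075) highest. In CD8A sp cells 5 rose and 4 fell of 13 tested, TNFRSF18 (1.38 ± 0.41) and CD28 (1.09 ± 0.13) being highest and CD38 (-0.80 ± 0.14) lowest. Of the other immediate early genes, 8 rose and 7 fell of 27 tested in CD4 sp and 7 rose and 7 fell of 24 tested in CD8A sp cells. EGR1 (0.72 ± 0.17 and 1.03 ± 0.28), MYC (0.33 ± 0.036 and 0.87 ± 0.08) and CREM (0.31 ± 0.06 and 0.82 ± 0.13) rose in both, and ZFP36 (-0.39 ± 0.039 and -1.08 ± 0.077) and IER3 (-0.37 ± 0.10 and -1.07 ± 0.19) fell in both. Of the AP-1 and ATF genes, 1 rose and 1 fell of 8 tested in CD4 sp and 0 rose and 2 fell of 6 tested in CD8A sp cells. Among them FOSL2 fell in both (-1.02 ± 0.27 and -2.39 ± 0.35). Of the homing list, 4 rose and 2 fell of 7 tested in CD4 sp and 2 rose and 2 fell of 7 tested in CD8A sp cells. CXCR6, a chemokine receptor, was lower in both (-2.40 ± 0.17 and -1.94 ± 0.24).

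Cells with and without a CD69 UMI were compared next, which asks what else differs between cells in which the early activation marker was and was not captured. A CD69- cell may carry the transcript, since under 1 UMI of it is drawn per cell on average, so this split compares detection. Few genes were called. FOS was higher in CD69+ cells of both coreceptor classes, and KLF6 and DUSP1 in CD4 sp cells; no member was lower. CD69 itself defined the classes and was left out, which leaves 7 members.

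In CD4 sp cells FOS stood at 1425, 1197, 1182 and 1200.2 CPM in CD69+ and 1227, 1138, 1045 and 1088 CPM in CD69- cells of dogs 1 to 4 (log2 fold change 0.15 ± 0.02 (SE), adjusted p = 1.6e-06). For CD8A sp cells the values were 1649, 1085, 1321 and 1421 against 1080.4, 1050.0, 1115 and 1023 CPM (log2 fold change 0.34 ± 0.051 (SE), adjusted p = 9.2e-05), a call that DESeq2 did not make (adjusted p = 0.19). FOS was higher in CD69+ cells in every dog and in both classes, with ranges that overlapped between dogs. KLF6 had ratios of 1.12, 1.06, 1.08 and 1.09 in CD4 sp cells (log2 fold change 0.12 ± 0.019 (SE), adjusted p = 1.1e-04) and of 1.13, 1.0, 0.978 and 1.08 in CD8A sp cells (log2 fold change 0.057 ± 0.037 (SE), adjusted p = 0.67).

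DUSP1 was higher in CD69+ CD4 sp cells (log2 fold change 0.22 ± 0.058 (SE), adjusted p = 0.043), but 10 of 13 alternatives lost the call, leaving out any 1 dog among them. JUNB (log2 fold change -0.028 ± 0.034 (SE), adjusted p = 0.87), NR4A1 (log2 fold change 0.068 ± 0.07 (SE), adjusted p = 0.84), DUSP2 (log2 fold change -0.11 ± 0.042 (SE), adjusted p = 0.29) and CD44 (log2 fold change -0.03 ± 0.025 (SE), adjusted p = 0.78) were not called in CD4 sp cells. The corresponding CD8A sp log2 fold changes were 0.009 for JUNB, -0.16 for NR4A1, -0.16 for DUSP2 and -0.018 for CD44, none of them called, DUSP2 being called without dog 1 alone (log2 fold change -0.19 ± 0.044 (SE), adjusted p = 0.0017).

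Thus 3 of 7 members were called higher in CD4 sp cells, where 1.21% of 10048 genes were called and 0.736% called higher. Of the same 7 in CD8A sp cells, 1 was called higher, where 1.15% of 9420 genes were called and 0.403% called higher. The median log2 fold change of the members was 0.068 and 0.009, beside -0.0014 and 0.0002 over all genes. A direct test of whether the CD69 difference differed between the coreceptor classes called 0% of 9953 genes and 0 of 7 members by edgeR, with 329 genes and 0 of 7 members at an unadjusted p under 0.05; the interaction of FOS was log2 fold change 0.20 ± 0.10 (SE), adjusted p = 1. CD69+ cells were deeper (median 4002 to 4550.5 against 3490.5 to 3770 UMIs in CD4 sp, 3951 to 4426 against 3193 to 3634 in CD8A sp cells). After thinning every cell to 2000 UMIs FOS kept its call in CD4 sp (log2 0.12 ± 0.027 SE) and in CD8A sp cells (0.40 ± 0.031), DUSP1 lost its call in CD4 sp cells (0.086 ± 0.11), and KLF6 was called in CD8A sp cells too (0.25 ± 0.033). In CD69+ CD8A sp cells 1 of 2 NK and 2 of 2 myeloid markers tested were called lower, and their part was not tested.

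**Figure D3:**
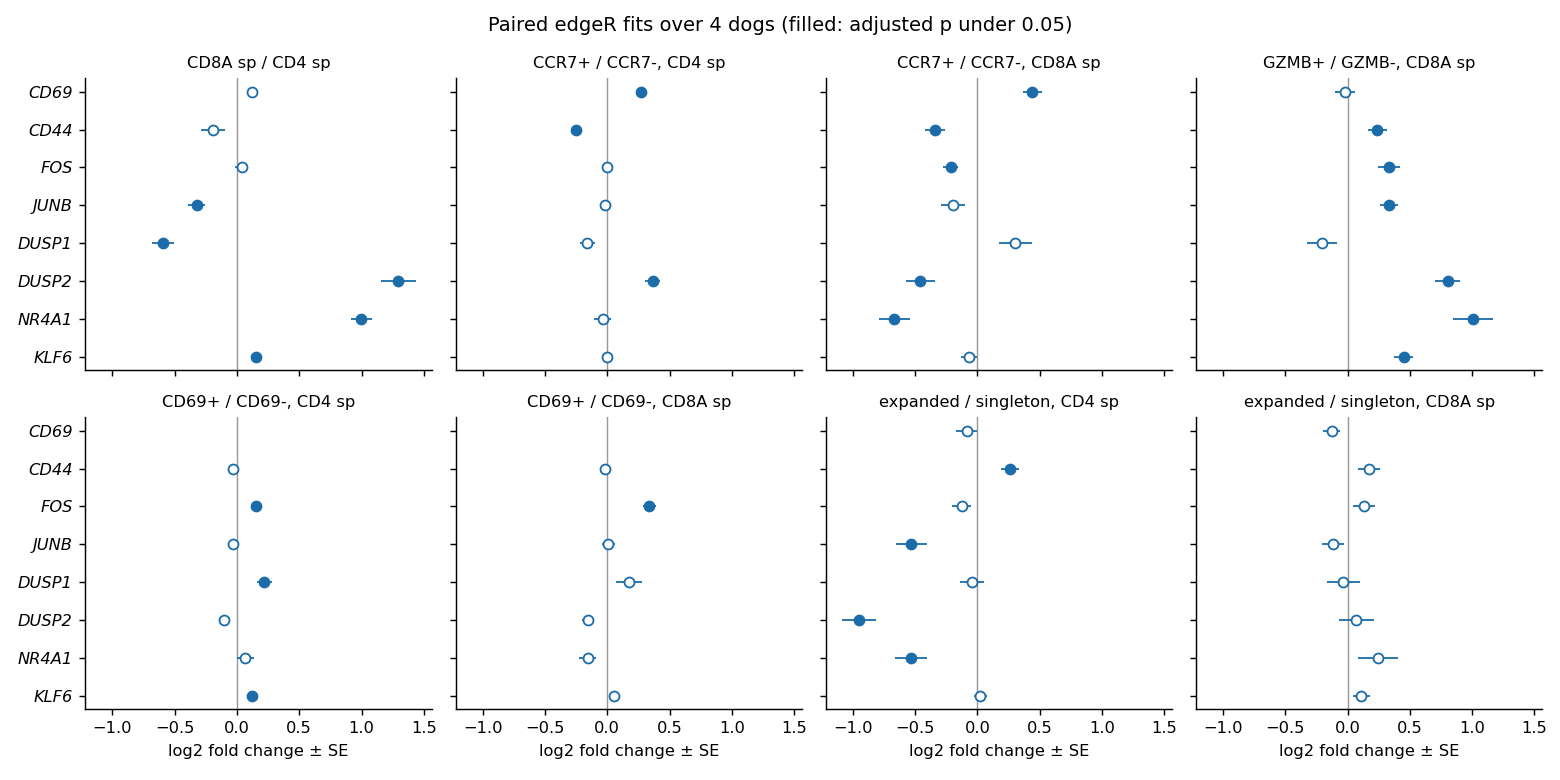
Log2 fold change of each member (horizontal axis; bars, SE of the edgeR fit with the dog as block, n = 4 dogs) in each comparison, filled where the adjusted p was under 0.05. The CD69+ against CD69- panels lie close to 0 beside the coreceptor and GZMB panels.

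Over all genes 74 were called higher and 48 lower of 10048 with CD69 in CD4 sp cells (1.21%). In CD8A sp cells 38 were higher and 70 lower of 9420 (1.15%). The lists, which include the members, had 3 of 8 AP-1 and ATF, 4 of 27 other immediate early and 1 of 10 NF-κB genes called in CD4 sp cells. They also had 1 of 10 phosphatase, 1 of 8 homing and 1 of 13 surface activation genes called. In the same order the CD8A sp counts were 2 of 6, 5 of 24, 1 of 10, 0 of 12, 3 of 8 and 0 of 12. In CD4 sp cells FOSB (0.28 ± 0.067, log2 ± SE) and JUND (0.10 ± 0.017) were higher beside FOS, as were NFKBIA (0.34 ± 0.043), the inhibitor of NF-κB, and PPP1R15A (0.16 ± 0.044), a stress response phosphatase subunit. ZFP36L2 (-0.15 ± 0.021) and KLF3 (-0.14 ± 0.029) were lower. Among CD8A sp cells ATF3 (0.66 ± 0.16), RGS1 (0.40 ± 0.048), PPP1R15A (0.34 ± 0.081), NFKBIA (0.28 ± 0.066) and CCR7 (0.66 ± 0.081) were higher, and IER3 (-0.43 ± 0.10) and CXCR6 (-0.45 ± 0.11) lower. No gene of the surface activation list was called higher in either class, CD44, CD28 and the class II genes included; in CD4 sp cells CD74 was lower (-0.063 ± 0.016). Of the heat shock genes 2 of 11 were higher in CD4 sp and 2 of 10 in CD8A sp cells.

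Detection of the members in the same cell was examined after thinning every cell to 2000 UMIs, as the number of cells with both genes over the number given by the product of their shares, within each dog. Over all cells 15 of the 28 pairs lay above 1 in all 4 dogs and 2 below, and the means ran from 0.908 to 1.42 with a median of 1.03. The ratio cannot pass the inverse of the share of the commoner gene, which leaves FOS (in 76.8% ± 2.01 of thinned cells) and KLF6 (78.7% ± 3.47) little room above 1 and sparse genes such as DUSP1 and NR4A1 much, so pairs are not ranked by it. DUSP2 with NR4A1 gave 1.5, 1.24, 1.18 and 1.74 in dogs 1 to 4, DUSP1 with NR4A1 1.57, 1.20, 1.27 and 1.25, and JUNB with NR4A1 1.22 ± 0.0688 (SD, n = 4 dogs).

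Since DUSP2 and NR4A1 were both higher in CD8A sp cells, their ratio was also taken within coreceptor classes. It was 1.33, 1.18, 0.952 and 1.59 (1.26 ± 0.269) in CD4 sp cells of dogs 1 to 4. In CD8A sp cells it was 1.42, 1.03, 1.05 and 1.36 (1.22 ± 0.203). DUSP1 with NR4A1 gave 0.965, 1.56, 0.845 and 1.20 in CD8A sp cells, and JUNB with NR4A1 1.25, 1.27, 0.859 and 1.18. In CD4 sp cells both of these pairs lay above 1 in every dog. Over all cells again, DUSP1 with FOS gave 1.14, 1.11, 1.14 and 1.13, nearly the same in each dog. The 2 phosphatases were not found together more often: DUSP1 with DUSP2 gave 1.02, 0.798, 0.878 and 0.933, and CD44 with DUSP2 0.963, 0.923, 0.954 and 0.868, below 1 in every dog. The 7 pairs with CD69 had means of 0.979 to 1.09 and a median of 1.03, as over all pairs; with DUSP1 it gave 1.08, 1.05, 1.10 and 1.15, with FOS 1.06, 1.02, 1.04 and 1.05, and with CD44 0.947, 0.985, 0.995 and 0.988. These ratios are descriptions of cells of 4 libraries and carry no test.

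**Figure D4:**
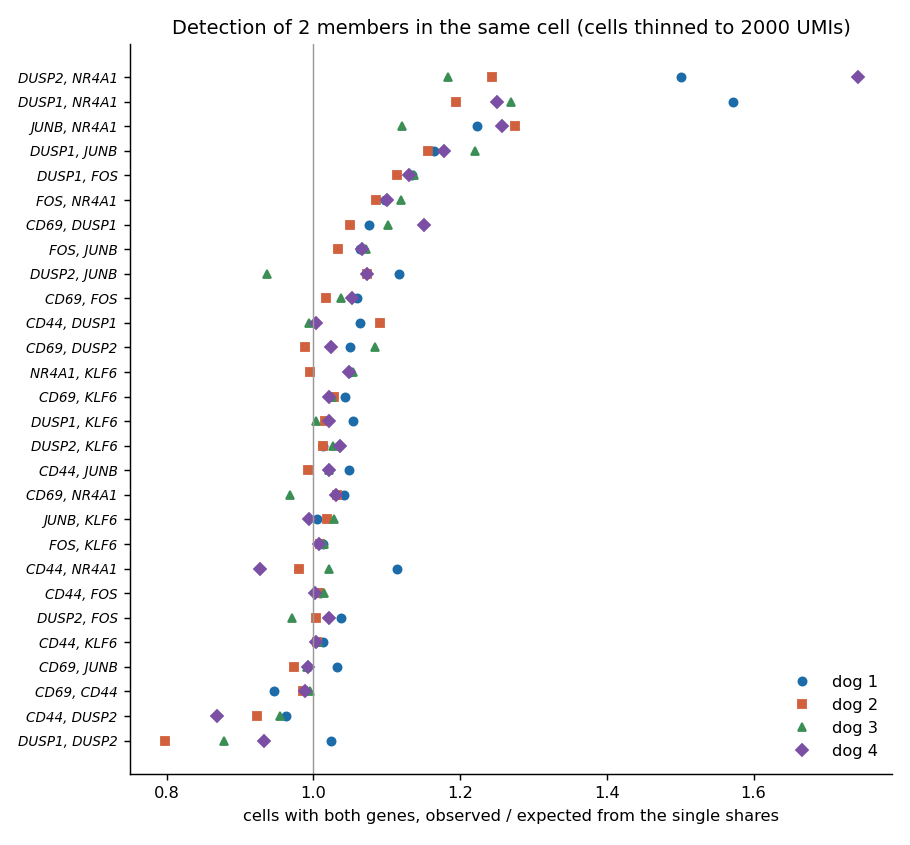
Observed over expected number of cells with UMIs of both genes for each pair of members, in all cells after thinning to 2000 UMIs per cell. Each pair has 1 point per dog, and 1 on the axis is independence. The means of the 4 dogs run from 0.908 for DUSP1 with DUSP2 to 1.42 for DUSP2 with NR4A1. Pairs with an abundant gene have little room above 1.

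The members differed unequally between deep and shallow cells. Depth was not separated from the kind of cell here, and the part of each was not tested. CD4 sp cells of 6000 UMIs or more were compared with those of 2000 to under 4000: CD44 (log2 fold change 0.36 ± 0.057 (SE), adjusted p = 2.5e-04), DUSP1 (log2 fold change 0.44 ± 0.10 (SE), adjusted p = 0.0034) and NR4A1 (log2 fold change 0.36 ± 0.11 (SE), adjusted p = 0.024) were a larger share of the RNA of deep cells and DUSP2 a smaller one (log2 fold change -0.45 ± 0.10 (SE), adjusted p = 0.004). These were 4 of 8 members, against 25.4% of 9446 genes, with a median of -0.043 over members and -0.0049 over all genes. The NR4A1 call was lost without dog 1 or dog 3, with DESeq2 and in cells with 1 productive TRB chain, the DUSP1 call with DESeq2, and the DUSP2 call without dog 2 or dog 3. CD44 stood at 575, 705, 719.6 and 715 CPM in deep and 409, 523, 544 and 655 CPM in shallower cells, higher in 4 of 4 dogs.

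CD69 (log2 fold change -0.10 ± 0.081 (SE), adjusted p = 0.42) and FOS (log2 fold change -0.076 ± 0.043 (SE), adjusted p = 0.23) were not called in that comparison, though CD69 was without dog 4 (log2 fold change -0.23 ± 0.061 (SE), adjusted p = 0.0062). Among cells under 2000 UMIs of all classes CD69 stood at 314 to 426 CPM against 195 to 275 in the next bin, FOS at 1341 to 1595 against 1145 to 1197 and KLF6 at 1139.6 to 1713 against 898 to 1202. The median mitochondrial share of those cells was 3.69% to 4.42%, above that of the next bin at 1.64% to 2.53%; the part of cell quality in the levels was not tested.

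**Figure D5:**
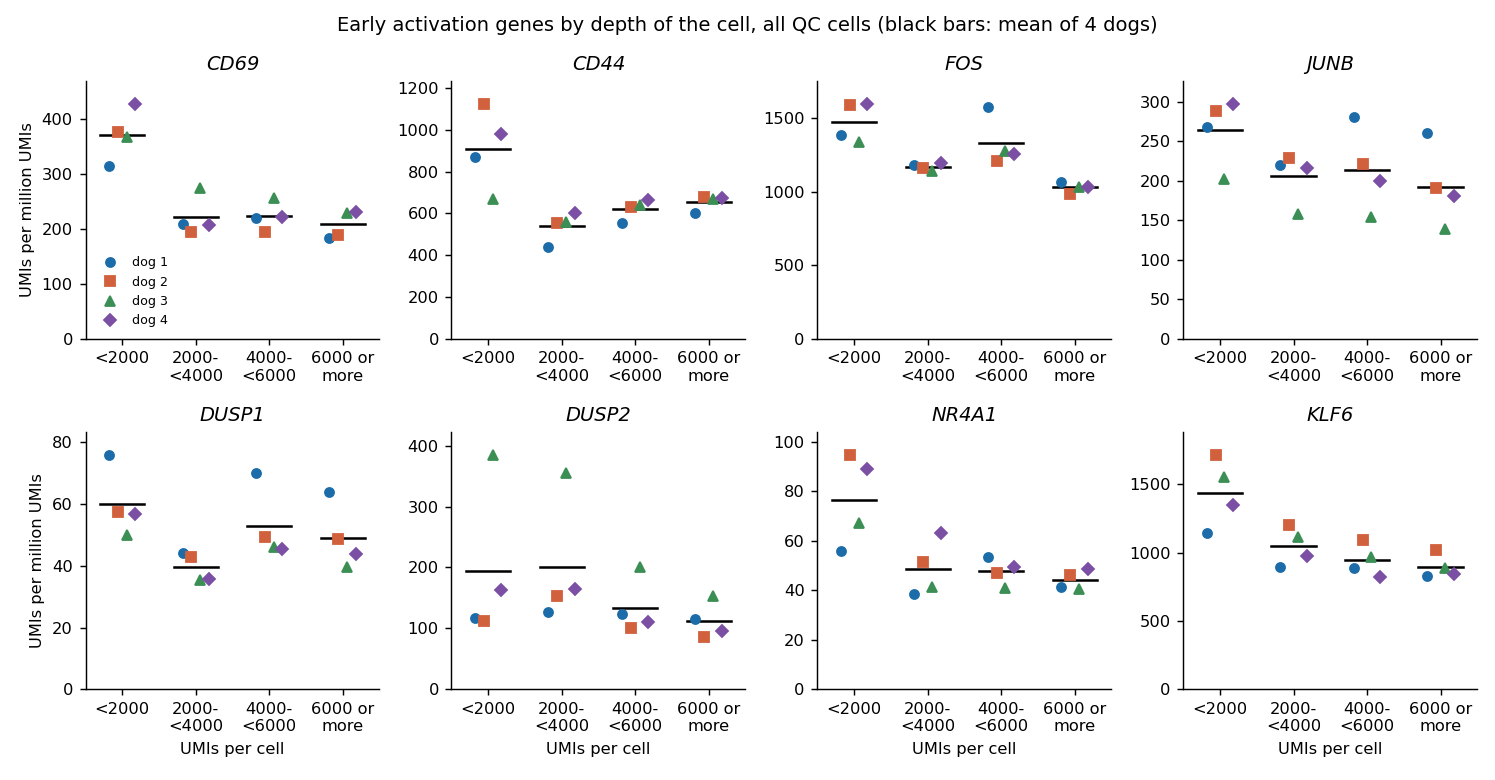
Level of each member in CPM (vertical axes) in 4 bins of UMIs per cell (horizontal axis), 1 point per dog with a bar at the mean. In all 4 dogs 7 of the 8 genes are higher under 2000 UMIs than in the next bin, DUSP2 being so in dog 3 alone, and CD44 rises again from the second bin to the deepest.

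Clonal expansion was read from the V(D)J libraries in cells with exactly 1 productive TRB chain, and all other cells were left out of both classes. A clone was the cells of 1 dog with the same TRB V gene, J gene and junction, and expanded meant 2 or more cells. Expanded CD4 sp cells had less DUSP2, JUNB and NR4A1 and more CD44 than CD4 sp cells whose clone was seen once. DUSP2 stood at 89.4, 50.5, 117 and 45.0 CPM in expanded and 119.8, 111, 159 and 123 CPM in single cells of dogs 1 to 4 (log2 fold change -0.95 ± 0.14 (SE), adjusted p = 4.6e-04), lower in all 4 dogs. The class held 2568 expanded cells, 132, 770, 477 and 1189 from the 4 dogs, and 7236 single ones.

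NR4A1 stood at 34.7, 29.0, 31.8 and 28.2 against 41.9, 42.0, 32.6 and 50.9 CPM (log2 fold change -0.53 ± 0.13 (SE), adjusted p = 0.011) and was lower in all 4 dogs, least so in dog 3. Its call was lost without dog 2 or dog 4, with DESeq2 and after thinning. JUNB stood at 310.3, 146, 135 and 142 against 263, 255, 174 and 247 CPM (log2 fold change -0.53 ± 0.12 (SE), adjusted p = 0.0092), lower in 3 dogs and higher in dog 1, which gave 132 expanded cells, and the call was lost without dog 2 or dog 4. CD44 stood at 779, 734, 671 and 755 against 486, 583, 638 and 677 CPM (log2 fold change 0.26 ± 0.072 (SE), adjusted p = 0.027), a call lost without dog 2 and with DESeq2. CD69 was not called (log2 fold change -0.087 ± 0.083 (SE), adjusted p = 0.55), nor was FOS, other than without dog 3 (log2 fold change -0.24 ± 0.064 (SE), adjusted p = 0.04).

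Of the 8 members 4 were called, 1 higher and 3 lower, against 15.8% of 9749 genes, with a median log2 fold change of -0.11 beside -0.0077 over all genes. The CD8A sp class, with 3546 expanded and 1549 single cells, had none of the 8 called by edgeR, against 6.43% of 8769 genes; 0 was also the count with DESeq2 and at an unadjusted p under 0.05, while CD44 was called without dog 4 (log2 fold change 0.32 ± 0.063 (SE), adjusted p = 0.0097).

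Over all genes 15.8% were called between expanded and single CD4 sp cells, 800 higher and 736 lower of 9749 genes. Of the other immediate early genes, 0 rose and 10 fell of 26 tested in expanded CD4 sp cells, among them NR4A3 (-1.58 ± 0.40), EGR1 (-1.49 ± 0.31) and NR4A2 (-0.71 ± 0.11). In the surface activation list 8 rose and 2 fell of 14 tested, led by DLA-DQA1 (0.62 ± 0.057) and DLA-DMB (0.57 ± 0.074). The homing gene CCR7 was lower (-1.70 ± 0.12). Myeloid marker transcripts, nearly all S100A8, were at 3025 to 3402 CPM in expanded and 1114 to 2434 CPM in single CD4 sp cells. NK receptor transcripts were at 5.48 to 77.6 against 0.495 to 11.1 CPM, and the part of these and of the myeloid transcripts was not tested. Expanded cells were deeper (median 3923 to 4739 against 3814 to 3928 UMIs). Deep CD4 sp cells had less DUSP2 and more CD44 as well, but more NR4A1, and JUNB was not called with depth. The calls of DUSP2, JUNB and CD44 with expansion were kept in cells of a narrow range of UMIs and after thinning. The NR4A1 call was kept in the former and lost after thinning. Beyond these alternatives the part of depth was not tested.

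Genes whose levels ran most alike to CD69, CD44, FOS and KLF6 were listed over 12 classes of cells that do not overlap, in each of the 4 dogs. The classes were split by coreceptor, CCR7, GZMB and depth, and each held at least 50 cells in every dog. No CCR7+ CD8A sp class and no class with both coreceptors was among them, and the GZMB+ classes were CCR7- CD8A sp cells alone. Levels were centred within a dog, over 2997 genes of at least 50 CPM. CD69 ran with TXK (Pearson r = 0.74), a kinase of the Tec family, TMEM71 (0.73) and ARIH2 (0.72). CD44 ran with ENSCAFG00000006485 (0.87), which the gene list gives no symbol, SRGN (0.86), the proteoglycan of secretory granules, and ACOT9 (0.85). FOS ran with CAST (0.70), SECISBP2 (0.69) and IER2 (0.67), itself an immediate early gene, and KLF6 with its relative KLF3 (0.89), the AP-1 gene JUND (0.88) and ADGRE5 (0.84).

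Among the members themselves DUSP2 ran with NR4A1 (r = 0.71) and against DUSP1 (r = -0.65), CD44 ran with DUSP1 (0.64), and CD69 ran weakly against CD44 (-0.36). These are descriptions over classes that share libraries, depth and the genes that set them.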

How the data were processed

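Blood TCRαβ+ T cells of 4 dogs were profiled, with 1 gene expression and 1 V(D)J library per dog. The authors made UMI counts per gene and cell with Cell Ranger 5.0.1 on the dog genome CanFam 3.1; the counts as deposited were used, with no normalization by the authors. Per dog, 7096 to 8454 cells passed the limits of 500 to 20000 UMIs and 10% mitochondrial UMIs (genes MT-* and ND4L), and no doublet caller was run. Cells with exactly 1 productive TRB chain served as an alternative, and clones were set among those cells alone. Presence of 1 UMI or more made a cell positive. Thinning drew 2000 UMIs per cell and left out 1020, 1329, 1110 and 1290 shallower cells. Tests of thinned cells set the detection classes again from the thinned counts.

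UMIs were summed per dog and class, since cells are no replicates, and tested with edgeR 4.0.16 in R 4.3.3 (TMM, filterByExpr, quasi-likelihood test, dog as block because both classes come from the same animal, Benjamini-Hochberg adjustment over all genes tested). Genes defining a class were left out. The code was tested on simulated data. All 8 members passed the filter in every comparison other than those where CD69 set the class. Alternatives were no block, DESeq2 1.42.0 and its size factors, no filter, each dog left out, cells of 3000 to 5000 UMIs, thinned cells and a mitochondrial limit of 5%. CPM is UMIs scaled to 1000000 UMIs of the class in a dog.

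The members and lists were chosen with earlier results of these data known. Besides the members, the rule names from each list up to 3 called genes in each direction with the largest fold change in a comparison, and the 3 genes most alike to CD69, CD44, FOS and KLF6 by Pearson correlation of log2(CPM + 10). With 4 dogs, no cells outside these 4 animals are represented, and UMI intervals would cover counting error only.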

Additional observations from a re-analysis of the deposited data

Results flagged for a closer look

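Of 104 groups of 4 dogs examined for a dog that stands apart, 6 were picked out, about the 1 in 20 that chance gives. DUSP2 over all cells was 248 CPM in dog 3 and 111 to 127 CPM in the other 3 dogs. CD69 in CCR7+ CD8A sp cells was 368 CPM in dog 3 against 272 to 277 CPM. JUNB in CD8A sp cells was 140.2 CPM in dog 3 against 178 to 182 CPM, the lowest rather than the highest. JUNB in expanded CD4 sp cells was 310.3 CPM in dog 1 against 135 to 146 CPM, where dog 1 gave 132 cells. FOS in CCR7- CD4 sp cells was 1363 CPM in dog 1 against 1141 to 1165 CPM. KLF6 in CD8A sp cells seen once as a clone was 1185 CPM in dog 2 against 885 to 934 CPM.

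The difference between CCR7+ and CCR7- cells itself differed between CD8A sp and CD4 sp cells for DUSP2 (-0.85, log2) and NR4A1 (-0.70) in the test of the interaction by edgeR. Each of these calls was lost under 4 of 6 alternatives. The interaction was not run within GZMB- cells.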

How the results depend on the processing

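Of 33 calls among the members, out of 85 tests, 5 held under every alternative run: DUSP1, DUSP2 and NR4A1 between coreceptor classes, CD69 between the CCR7 classes of CD8A sp cells, and NR4A1 with GZMB. Without the dog as block, the pairing by animal, 27 calls were lost, with DESeq2 10, without dogs 1 to 4 in turn 5, 9, 10 and 7, and after thinning 4. Another 11 passed under some alternative, and 24 of the 52 uncalled tests changed sign under at least 1. DUSP2 (0.17) and KLF6 (0.26, log2) turned from lower to higher in CCR7+ CD8A sp cells among GZMB- cells only, an alternative chosen after seeing the data; the cause was not tested.

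Genes called in all numbered 2904 for the coreceptor comparison, 2263 for CCR7 in CD4 sp cells, 1461 for CCR7 in CD8A sp cells, 1741 for GZMB, 122 for CD69 in CD4 sp cells, 108 for CD69 in CD8A sp cells, 2397 for depth, 1536 for expansion in CD4 sp cells, 564 for expansion in CD8A sp cells, 239 for the CCR7 interaction and 0 for the CD69 interaction. Without the pairing block they were 1427 for the coreceptor comparison, 5 for CCR7 in CD4 sp cells, 754 for CCR7 in CD8A sp cells, 664 for GZMB, 0 for CD69 in CD4 sp cells, 0 for CD69 in CD8A sp cells, 566 for depth, 500 for expansion in CD4 sp cells, 88 for expansion in CD8A sp cells and 20 for the CCR7 interaction. With DESeq2 they were 968 for CCR7 in CD4 sp cells, 808 for CCR7 in CD8A sp cells, 810 for GZMB, 17 for CD69 in CD4 sp cells, 28 for CD69 in CD8A sp cells, 883 for depth, 852 for expansion in CD4 sp cells and 219 for expansion in CD8A sp cells. Leaving out 1 dog gave 1339 to 2290 for CCR7 in CD4 sp cells, 891 to 1360 for CCR7 in CD8A sp cells, 1123 to 1515 for GZMB, 52 to 138 for CD69 in CD4 sp cells, 45 to 223 for CD69 in CD8A sp cells, 1442 to 2595 for depth, 571 to 1740 for expansion in CD4 sp cells, 252 to 543 for expansion in CD8A sp cells and 80 to 224 for the CCR7 interaction. In cells thinned to 2000 UMIs, which also removes cells and counts, they were 1227 for CCR7 in CD4 sp cells, 752 for CCR7 in CD8A sp cells, 1052 for GZMB, 30 for CD69 in CD4 sp cells, 16 for CD69 in CD8A sp cells, 1004 for expansion in CD4 sp cells and 365 for expansion in CD8A sp cells, and in cells of 3000 to 5000 UMIs 1134 for GZMB, 31 for CD69 in CD4 sp cells and 14 for CD69 in CD8A sp cells. Cells with 1 productive TRB gave 72 for CD69 in CD4 sp cells, a mitochondrial limit of 5% 74 for CD69 in CD4 sp cells, no filter 876 for expansion in CD8A sp cells, and GZMB- cells only 904 for CCR7 in CD8A sp cells. With DESeq2's size factors, and without shared barcodes (chosen after seeing the data), every count was within 1.5 times its value. Thinning lowered the cells and counts and set the detection classes again, and leaving out a dog lowered the number of animals. The cause of a shift was not tested. DUSP1 and NR4A1 were the sparsest members, seen in 15.6% and 15.0% of cells. Thinning lost the DUSP1 call with CD69 and the NR4A1 call with expansion, both in CD4 sp cells. Their calls between coreceptor classes held under every alternative, none of which was limited to GZMB- cells.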

Other observations

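Smaller classes set by 1 marker gene each are given as levels, without a test. CD4 sp cells with a FOXP3 UMI, the factor of regulatory T cells (622 cells), had JUNB at 393, 281, 231 and 292 CPM in dogs 1 to 4, above the level of all CD4 sp cells in each dog. CD69 in the same cells stood at 115, 146, 192 and 164 CPM, below all CD4 sp cells in each dog, and CD44 at 696, 769.8, 856 and 768 CPM. Cells with a UMI of MKI67, a gene of dividing cells (768 cells), had FOS at 671, 639, 553 and 749 CPM, against 1328, 1153, 1183 and 1209 CPM in all cells.

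In CD8A sp cells with GZMK, another granzyme, FOS stood at 2112, 1100.0, 1349 and 1491 CPM and NR4A1 at 151, 92.3, 73.1 and 134 CPM. In CD8A sp cells with FCER1G, an adaptor of innate receptors, DUSP2 stood at 242, 264, 575 and 274 CPM and CD69 at 221, 221, 258 and 226 CPM. CD4 sp cells with GATA3 had CD44 at 575, 701, 683 and 757 CPM and those with CXCR3 at 708, 737, 710.2 and 727 CPM. These classes overlap each other, and some held deeper cells than the sample at large, with medians of 4634 to 4879 UMIs for FOXP3+ and 5167 to 6679 for MKI67+ cells.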
